A study of Mus musculus with 3 samples.

Results

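Chemokines are small secreted proteins that steer cell migration, and chemokine receptors are the G protein-coupled receptors that read them. All genes whose symbol names a chemokine or a chemokine receptor were taken from a microarray data set of mouse thymocytes, the T cell precursors that fill the thymus. Of 19938 genes with a probe set listed for 1 gene symbol, 56 met this rule, 22 receptors and 34 ligands. The rule reads the gene symbol alone.

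RNA had been measured on 3 whole-transcript arrays, 1 per genotype: wild type (12 weeks of age), β-catenin transgenic (16 weeks) and TCF-1-/- (8 weeks), called TCF-1-deficient below. TCF-1 is a DNA-binding factor of the Wnt pathway that recruits β-catenin to genes, and the series' design looked for genes that fall without TCF-1 and rise with the β-catenin transgene. The labels do not say which promoter drives the transgene, which allele was disrupted, which strain was used or whether mice were pooled, and they name no sort or gate. They name no allele or treatment that all 3 groups carry. With 1 array per genotype there is no replicate, no error and no test, and every difference below is 1 array minus another on the deposited log2 scale. A difference of at least 1 in either direction, which is 2-fold, is called higher or lower as a rule of size.

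Thymocytes pass through the organ as they mature, and chemokines made by thymic stroma guide each step. Progenitors enter and move outward with the help of CXCR4, CCR7 and CCR9. CD4+CD8+ double-positive cells of the cortex carry CCR9 and CXCR4, whose ligands CCL25 and CXCL12 are made by cortical epithelium. After positive selection, CCR4 and then CCR7 are induced and guide cells into the medulla, toward CCL17 and CCL22 and toward CCL19 and CCL21.

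Markers of the labelled tissue were present on every array. Cd3e, a chain of the T cell receptor complex, measured 13.42 in wild type, 13.34 in transgenic and 13.05 in TCF-1-deficient cells. Of 11 markers of thymic epithelium, 9 lay below the median level over all genes (6.90) on every array, Foxn1, Epcam, Psmb11 and Aire among them. The other two lay above it: Ly75 was at 8.48, 8.48 and 8.40 and Cldn4 at 9.38, 8.94 and 7.94 on the wild type, transgenic and TCF-1-deficient arrays. The transgenic array also differed in a transcript of 1 sex: Xist, the RNA that coats an inactive X chromosome, measured 12.49 in wild type and 12.17 in TCF-1-deficient cells but 4.86 in transgenic cells. Genotype, age and this difference cannot be told apart. Many deposited values are repeated exactly: 33.6% of all genes show 1 value throughout, equal to the last digit, 51.3% of those whose mean lies below the median level and 16.0% of those above it. The sources used here do not say why values repeat, so an exact repeat is given below as a listed value.

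Most members were dim. Of the 22 receptors, 13 lay below the median level over all genes on every array and 6 reached it on every array. Of the 34 ligands, 31 lay below it on every array and 3 reached it on every array, Ccl5, Ccl25 and Xcl1. The same value on all 3 arrays was listed for 8 receptors and 17 ligands. In a whole suspension of thymocytes, a low value can mean few expressing cells or little RNA per cell, and these cannot be told apart.

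**Figure D1:**
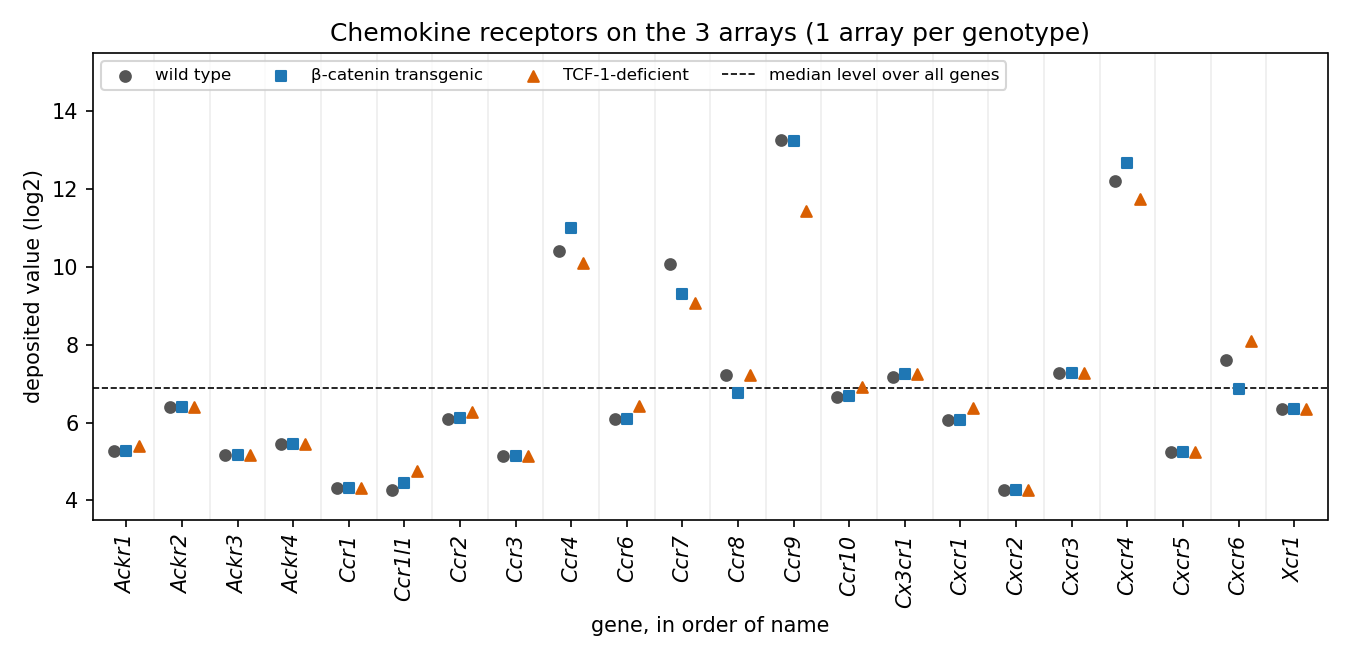
Deposited log2 value (vertical axis) of each of the 22 chemokine receptors (horizontal axis, in order of name) on the wild type (grey circles), β-catenin transgenic (blue squares) and TCF-1-deficient array (orange triangles). Points are single arrays with no error bars, and the dashed line is the median level over all genes (6.90). Ccr9 is at 13.25 and 13.24 on the wild type and transgenic arrays and at 11.44 on the TCF-1-deficient array, while most receptors lie below the line with near-equal values.

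Without TCF-1, 1 of the 22 receptors was at least 2-fold lower than in wild type cells and 0 were higher. Over all genes tested, 2.62% were lower and 1.33% were higher by this rule. Of the 8 receptors whose mean reached the median level 1 was lower, beside 4.75% of all genes that reached it. With the array medians set equal, which moves every difference without TCF-1 up by 0.13, all genes split into 364 higher and 405 lower, against 266 and 523 as deposited, and Ccr9 stayed the 1 receptor past 2-fold. At 1.5-fold 2 receptors were lower, Ccr9 and Ccr7, beside 6.9% of all genes. The 1 receptor past 2-fold was Ccr9, the receptor for CCL25. Ccr9 measured 13.25 in wild type, 13.24 in transgenic and 11.44 in TCF-1-deficient thymocytes. TCF-1-deficient cells thus stood alone, with a difference of -1.81 from wild type (3.51-fold lower), while the transgenic array differed from wild type by -0.01. Among all genes, 0.592% had a difference at least as low as that of Ccr9, and among genes that reached the median level 1.09% did. Ccr9 also differed between the transgenic and TCF-1-deficient arrays, by 1.80.

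Most double-positive thymocytes are known to carry CCR9, and markers of these cells were lower as well. Of 11 measured markers of this stage, 10 were at least 2-fold lower in TCF-1-deficient than in wild type cells and 0 were higher. Of all genes 2.62% were lower, and 4.75% of those that reached the median level. The mean level of the list was 11.77 in wild type, 11.86 in transgenic and 9.98 in TCF-1-deficient cells. The difference of Ccr9 (-1.81) lay close to the median of that list (-1.75). Of 9 markers of DN3 cells, which come before, 8 were at least 2-fold higher without TCF-1, beside 1.33% of all genes. The mean level of the DN3 markers was 8.27 in wild type, 7.93 in transgenic and 10.17 in TCF-1-deficient cells. The part of these stages in the Ccr9 difference was not tested.

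Ccr9 lies in a group of receptor genes on chromosome 9, where 13 of the 22 receptors are placed by the RefSeq gene table. The genes beside it were looked at after the value of Ccr9 was known. Lztfl1, a regulator of protein traffic in cilia, precedes Ccr9 and measured 10.50 in wild type, 10.10 in transgenic and 8.997 in TCF-1-deficient cells. Its difference without TCF-1 was -1.50, the same direction as Ccr9 and past 2-fold. Fyco1, an adaptor for vesicle transport, lies between Ccr9 and Cxcr6 and was at 8.14, 8.09 and 7.48 on the same arrays, a difference of -0.65. Cxcr6, the next gene, differed from wild type in the other direction, by 0.49. The receptors that follow, Xcr1, Ccr1, Ccr1l1, Ccr3 and Ccr2, lay below the median level on every array, and their differences ran from -0.02 to 0.49.

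**Figure D2:**
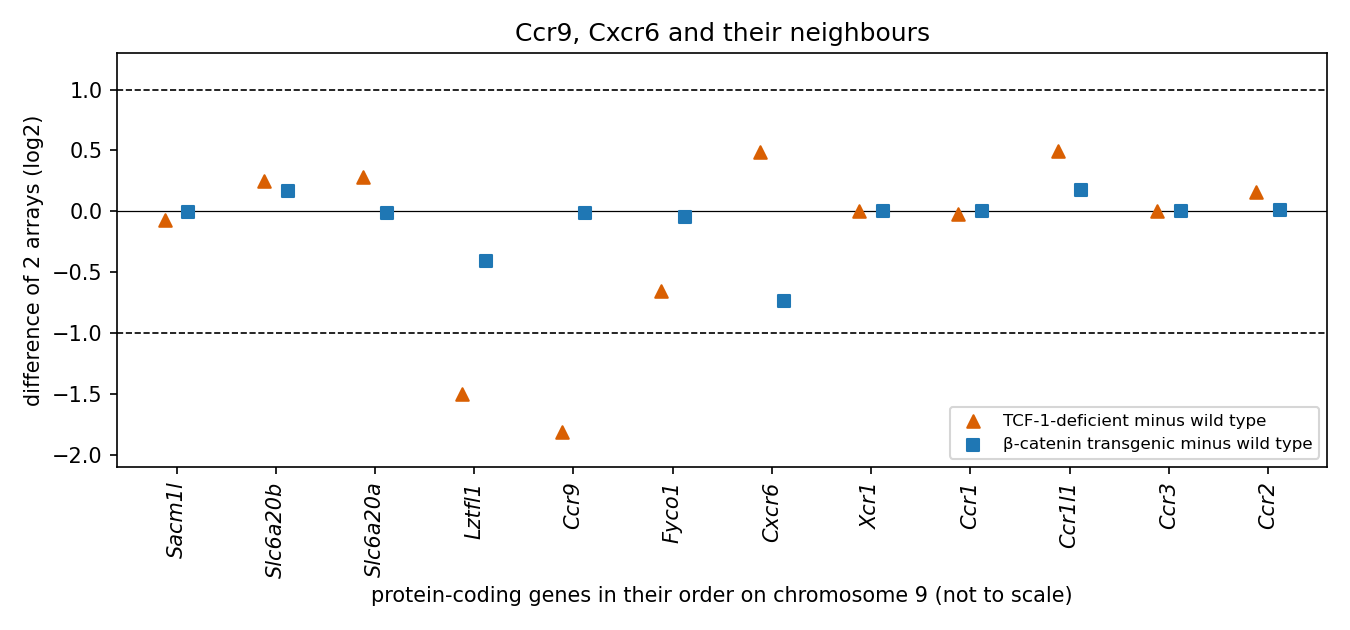
Difference from wild type on the log2 scale (vertical axis) of protein-coding genes in their order on chromosome 9 (horizontal axis, not to scale), for the TCF-1-deficient (orange triangles) and β-catenin transgenic (blue squares) arrays, 1 array each. Dashed lines mark 2-fold. On the TCF-1-deficient array Lztfl1 (-1.50), Ccr9 (-1.81) and Fyco1 (-0.65) are lower in a row, and Cxcr6 (0.49) is not.

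The stretches before the start sites of receptors whose values differed most between the arrays are shown because TCF-1 is known to bind sequences around the letters CTTTGA. Of the 56 members, 42 had an entry in the RefSeq promoter table (build GRCm38.p6), and Ccr7 had none. Each line gives the 250 bases before the annotated start, read 5′ to 3′ on the strand of the gene, with CTTTGA or its reverse complement TCAAAG in capitals. Ccr9 is at chr9:123766961-123767210 (+ strand), Cxcr4 at chr1:128592300-128592549 (- strand), Ccr4 at chr9:114496545-114496794 (- strand) and Cxcr6 at chr9:123806227-123806476 (+ strand).
Ccr9: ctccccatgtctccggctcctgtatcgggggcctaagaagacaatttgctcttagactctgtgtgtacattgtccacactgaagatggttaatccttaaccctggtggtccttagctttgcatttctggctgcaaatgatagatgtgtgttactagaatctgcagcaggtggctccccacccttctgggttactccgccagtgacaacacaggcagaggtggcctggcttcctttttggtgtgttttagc
Cxcr4: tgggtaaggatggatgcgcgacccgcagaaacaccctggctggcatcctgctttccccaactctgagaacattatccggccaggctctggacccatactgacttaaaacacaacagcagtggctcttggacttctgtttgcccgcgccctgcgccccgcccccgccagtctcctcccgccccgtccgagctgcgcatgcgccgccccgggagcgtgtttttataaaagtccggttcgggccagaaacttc
Ccr4: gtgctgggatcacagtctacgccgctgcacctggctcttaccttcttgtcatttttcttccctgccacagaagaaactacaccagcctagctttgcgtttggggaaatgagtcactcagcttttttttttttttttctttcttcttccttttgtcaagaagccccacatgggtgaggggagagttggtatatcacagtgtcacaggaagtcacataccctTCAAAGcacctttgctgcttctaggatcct
Cxcr6: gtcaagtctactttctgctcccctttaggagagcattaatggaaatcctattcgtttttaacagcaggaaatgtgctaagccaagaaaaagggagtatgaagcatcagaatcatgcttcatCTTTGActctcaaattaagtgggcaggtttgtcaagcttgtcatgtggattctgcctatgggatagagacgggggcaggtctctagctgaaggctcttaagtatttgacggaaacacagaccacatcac
The letters were found 1 time in the stretch of Ccr4, 30 to 25 bases before the start on the opposite strand, where 1 more base completes the longer form CTTTGAA. They were found 1 time in the stretch of Cxcr6, 129 to 124 bases before the start. The stretches of Ccr9 and Cxcr4 do not hold them. On either strand, 13.8% of the 32851 stretches of the same length in the table hold CTTTGA and 4.46% hold CTTTGAA, which contains it. A match describes letters only, and these 250 bases leave out distal elements.

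Cxcr4, the receptor for CXCL12, measured 12.21 in wild type, 12.66 in transgenic and 11.75 in TCF-1-deficient thymocytes. The transgenic array was the highest and the TCF-1-deficient array the lowest. Its differences from wild type were 0.45 with the transgene and -0.45 without TCF-1, both under 1.5-fold. Between the 2 mutant arrays it differed by 0.91.

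Ccr4, the receptor for CCL17 and CCL22, had the same order. It measured 10.41 in wild type, 11.005 in transgenic and 10.09 in TCF-1-deficient thymocytes. Its difference of 0.59 with the transgene passed 1.5-fold. Of all genes 0.476% were at least as much higher, and 0.752% of those that reached the median level. Its difference without TCF-1 was -0.32. Ccr4 and Cxcr4 thus had the order that the series' design looked for, with TCF-1-deficient cells lowest and transgenic cells highest. Neither reached 2-fold against wild type in either comparison. Of genes that reached the median level, 45.8% were below wild type without TCF-1 and 27.8% above it with the transgene. How many genes had both was not counted, so this order is not shown to be particular to these receptors.

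Ccr7, the receptor for CCL19 and CCL21 on cells bound for the medulla, was lower on both mutant arrays. It measured 10.08 in wild type, 9.32 in transgenic and 9.08 in TCF-1-deficient thymocytes. Its difference without TCF-1 was -0.998, just short of the 2-fold rule, and its difference with the transgene was -0.76. In the transgenic comparison, where differences were small, 0.281% of all genes were at least as low, and 0.451% of those that reached the median level. The wild type array was the highest for Ccr7, and both comparisons use that array. Of 9 measured markers of single-positive thymocytes, the stage that follows selection, 2 were lower without TCF-1 and 0 with the transgene by at least 2-fold. The 2 were Cd69 (-2.24) and Cd40lg (-1.62), beside 2.62% of all genes lower without TCF-1. Il7r (0.63) and Klf2 (0.38) were above wild type without TCF-1, and the other members were below it. The median of that list was -0.69 without TCF-1 and -0.32 with the transgene, and its part in the Ccr7 difference was not tested.

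Against wild type, the transgenic array had 0 of 22 receptors and 0 of 34 ligands past 2-fold in either direction, beside 0.246% of all genes. At 1.5-fold, Ccr4 was higher, beside 0.487% of all genes, and Ccr7 and Cxcr6 were lower, beside 0.667%.

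Cxcr6, the receptor for the membrane-bound chemokine CXCL16, is known on innate-like and tissue-resident T cells. It measured 7.60 in wild type, 6.86 in transgenic and 8.09 in TCF-1-deficient thymocytes. Transgenic cells were thus lowest and TCF-1-deficient cells highest, the reverse of the order of Ccr4 and Cxcr4. The difference between the transgenic and TCF-1-deficient arrays was -1.23 (2.35-fold). The transgenic value (6.86) lay just below the median level over all genes (6.90). The differences from wild type were -0.74 with the transgene and 0.49 without TCF-1. In the comparison of the transgenic with the TCF-1-deficient array, Cxcr6 was the 1 receptor lower and Ccr9 the 1 receptor higher by at least 2-fold, beside 1.57% of all genes lower and 2.45% higher. At 1.5-fold 3 receptors were higher, Ccr9, Cxcr4 and Ccr4, beside 6.29% of all genes. This comparison uses the same arrays as the other two and adds no independent measurement.

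Markers of γδ T, innate-like T and NK cells differed in both directions beside Cxcr6. Of 16 measured, 6 were at least 2-fold higher without TCF-1 than in wild type cells, Sox13, Blk, Il23r, Maf, Gzma and Cd160, and 1 was lower, the NK cell receptor gene Klrb1c (-1.06). Over all genes 1.33% were higher and 2.62% lower. Il23r and Klrb1c lay below the median level on every array. The median difference of the list was 0.12. With the transgene 0 were past 2-fold. The mean level of the list was 7.05 in wild type, 6.97 in transgenic and 7.81 in TCF-1-deficient cells. Zbtb16, a factor that defines innate-like T cells, was listed at 6.86 on every array, below the median level. Gzma, a granzyme, measured 8.95 in wild type, 8.54 in transgenic and 11.60 in TCF-1-deficient cells. Cd160, also a gene of NK and cytotoxic cells, was higher without TCF-1 as well (2.12). Several other genes of these cells did not share this difference: without TCF-1, Klrd1 differed by -0.58, Tbx21 by -0.50 and Nkg7 by -0.33, and Gzmb and Eomes by 0. The part of these cells in the Cxcr6 values was not tested.

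Ccr8, the receptor for CCL1, measured 7.22 in wild type, 6.76 in transgenic and 7.22 in TCF-1-deficient thymocytes. The transgenic array alone was lower, by 0.45, which is under 1.5-fold, and its value lay below the median level over all genes. Cx3cr1, the receptor for CX3CL1 on monocytes and some T cells, was at 7.18, 7.25 and 7.25 on the wild type, transgenic and TCF-1-deficient arrays. Cxcr3, the receptor for interferon-induced chemokines, was listed at 7.28 on all 3 arrays. It is the 1 receptor placed on chromosome X.

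The other receptors were below or near the median level and within 1.5-fold in all comparisons. Ccr10, which binds CCL27 and CCL28, measured 6.66 in wild type, 6.68 in transgenic and 6.93 in TCF-1-deficient cells. Ccr6, the receptor for CCL20, was at 6.10, 6.10 and 6.43 on the same arrays. Ccr2, a receptor of monocytes, was at 6.10, 6.12 and 6.26, and Cxcr1, a receptor of neutrophils, was at 6.08, 6.08 and 6.37. Cxcr5, the follicular homing receptor, was listed at 5.24 on all 3 arrays and Xcr1, a receptor of cross-presenting dendritic cells, at 6.35. Of the atypical receptors, which bind chemokines without signalling through G proteins, Ackr2 was listed at 6.39, Ackr3 at 5.17 and Ackr4 at 5.46 on every array. Ackr1 measured 5.27 in wild type and transgenic cells and 5.40 in TCF-1-deficient cells.

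Ligand differences spanned a narrower range than receptor differences. Of 34 ligands, 0 were past 2-fold in any of the 3 comparisons, and 0 were past 1.5-fold against wild type on either mutant array. Of all genes, 10.9% passed 1.5-fold without TCF-1 and 1.15% with the transgene, in either direction. Dim genes did so less often: of the 9969 below the median level, 220 were higher and 107 lower without TCF-1. With the transgene, 20 of them were higher and 28 lower. The part of low level in the narrower range of the ligands was not tested. The ligand differences ran from -0.13 to 0.54 without TCF-1 and from -0.17 to 0.30 with the transgene. The median difference was 0 for receptors, for ligands and for all genes in each of the 3 comparisons.

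**Figure D3:**
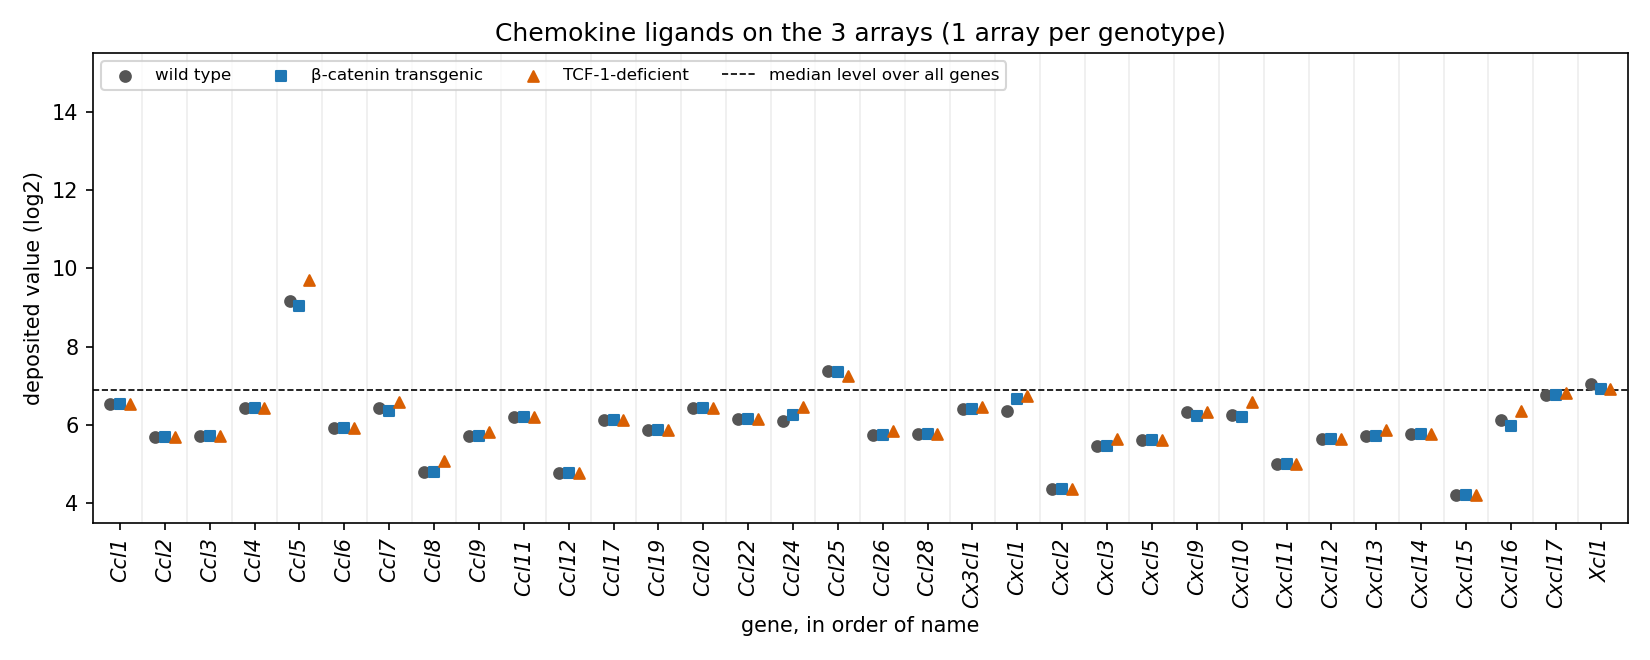
Deposited log2 value (vertical axis) of each of the 34 chemokine ligands (horizontal axis, in order of name) on the wild type (grey circles), β-catenin transgenic (blue squares) and TCF-1-deficient array (orange triangles), as single arrays with no error bars. Ccl5, from 9.05 to 9.70, lies well above the dashed median level over all genes (6.90), and 31 ligands lie below it on every array.

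Ccl5, made by cytotoxic and memory-type T cells and NK cells, had the largest ligand difference. It measured 9.16 in wild type, 9.05 in transgenic and 9.70 in TCF-1-deficient thymocytes. The TCF-1-deficient array was the highest, by 0.54 over wild type. The transgenic array differed from the TCF-1-deficient array by -0.65, the 1 ligand difference past 1.5-fold. In that comparison 4.4% of all genes were lower by 1.5-fold. At least as low as Ccl5 were 3.65% of all genes and 5.85% of those that reached the median level. Like Cxcr6, Ccl5 was highest without TCF-1 and lowest with the transgene. Of the transcripts of cytotoxic and NK cells, Gzma and Cd160 had this order too. Nkg7 did not, at 9.60 in wild type, 9.28 in transgenic and 9.27 in TCF-1-deficient cells, and Klrd1, Tbx21 and Klrb1c were likewise lowest without TCF-1.

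Ccl25, the ligand of CCR9, is made by thymic epithelium rather than by thymocytes. It measured 7.37 in wild type, 7.34 in transgenic and 7.26 in TCF-1-deficient thymocytes. Its difference of -0.11 without TCF-1 stood beside -1.81 for its receptor. A dimmer probe set of Ccl25 was listed at 6.42 on all 3 arrays. Xcl1, the ligand of XCR1, was at 7.05, 6.91 and 6.93 on the wild type, transgenic and TCF-1-deficient arrays.

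The other ligands of thymic stroma were dim and nearly all repeated. Cxcl12, the ligand of CXCR4, was listed at 5.64 on every array. Ccl19, a ligand of CCR7, was listed at 5.86 and Ccl22, a ligand of CCR4, at 6.14 on every array, while Ccl17, the other CCR4 ligand, was at 6.12, 6.12 and 6.13 on the wild type, transgenic and TCF-1-deficient arrays. These ligands thus showed almost no difference beside those of Cxcr4, Ccr4 and Ccr7, at levels where exact repeats are common.

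Interferon-induced ligands were dim as well. Cxcl10 measured 6.26 in wild type, 6.20 in transgenic and 6.58 in TCF-1-deficient thymocytes, and Cxcl9 measured 6.34, 6.23 and 6.34. Cxcl16, the ligand of CXCR6, was at 6.13, 5.96 and 6.36 on the same arrays. It had the order of its receptor, highest without TCF-1 and lowest with the transgene, with a difference of -0.40 between the mutant arrays. Cxcl16 lay below the median level on every array, and the order was not particular to it. Cxcl10 had it too, and so did Ccl7, at 6.42 in wild type, 6.37 in transgenic and 6.60 in TCF-1-deficient cells. Inflammatory ligands included Cxcl1, which recruits neutrophils, at 6.37, 6.67 and 6.73, and Ccl24, which recruits eosinophils, at 6.10, 6.25 and 6.45. Ccl3 and Ccl4, made by activated leukocytes, were listed at 5.73 and 6.44 on every array.

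Where a dim ligand differed from wild type without TCF-1, it was above it, and so were most dim genes that differed. Of the 31 ligands whose mean lay below the median level, 13 were above, 0 below and 18 equal to their wild type value in TCF-1-deficient cells. Over all 9969 genes below the median level, 39.7% were above, 6.33% below and 53.9% equal. Among genes that reached the median level, 35.4% were above and 45.8% below. On the transgenic array, 2 of these 31 ligands were above, 4 below and 25 equal to wild type, beside 21.2%, 7.08% and 71.7% of dim genes. Without TCF-1 the dim ligands thus leaned in the same direction as dim genes at large. With the transgene they did not, at 6.45% above and 12.9% below. The part of low level in these differences was not tested.

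**Figure D4:**
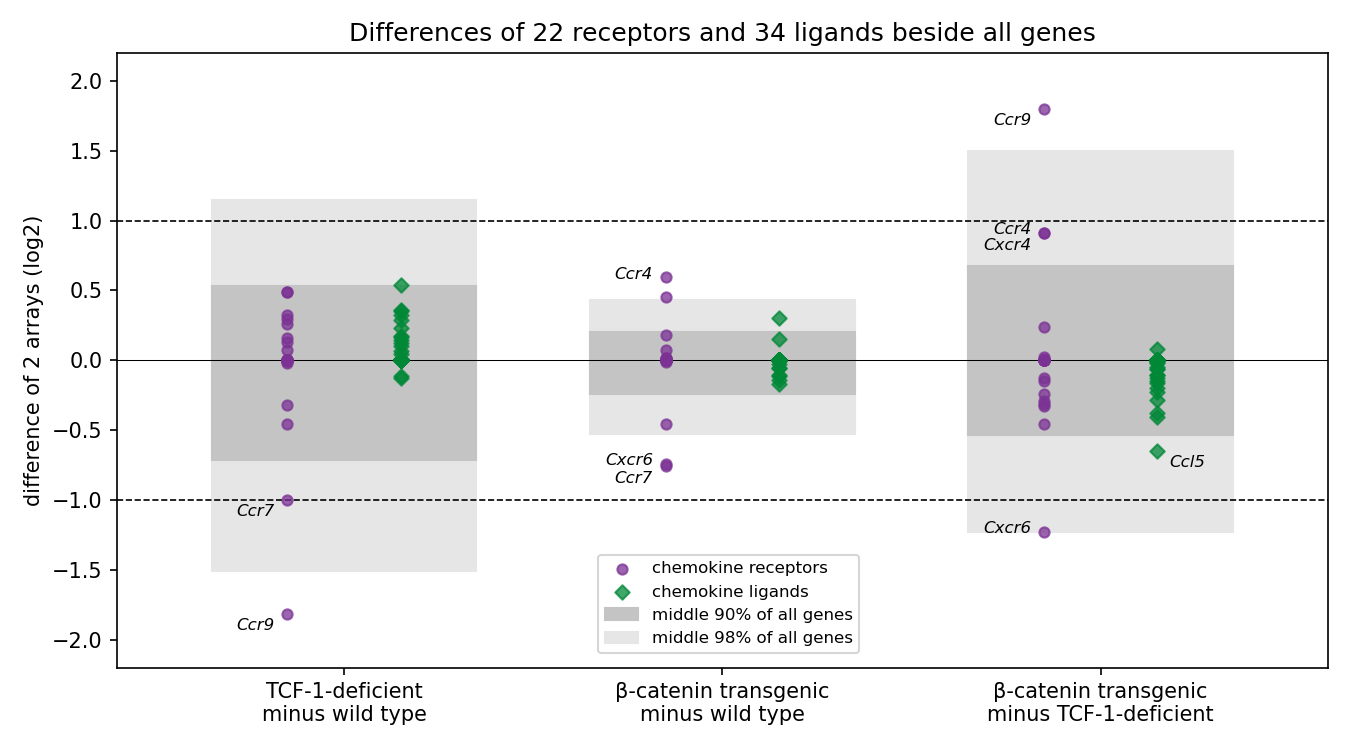
Difference of 2 arrays on the log2 scale (vertical axis) for the 22 receptors (purple circles) and 34 ligands (green diamonds) in the 3 comparisons, with bands that hold the middle 90% (dark) and 98% (light) of all 19938 genes. Dashed lines mark 2-fold, and members past 1.5-fold are named. Ccr9 lies outside the light band without TCF-1 (-1.81), and Ccr4 (0.59), Cxcr6 (-0.74) and Ccr7 (-0.76) lie outside the narrower band of the transgenic comparison. Cxcr4 (0.45), under 1.5-fold and so not named, lies just outside that band too.

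Chemokine receptors act through Gi proteins, phosphoinositide 3-kinase γ and exchange factors that activate Rac, and RGS proteins and arrestins end the signal. Of 32 measured genes of this pathway, 3 were at least 2-fold lower without TCF-1 than in wild type cells and 0 were higher, with a median of -0.08 beside 0 over all genes. Of all genes 2.62% were lower, and 4.75% of those that reached the median level, below which 4 of the 32 lay on every array. Rgs14, an RGS protein that acts on Gi, measured 9.35 in wild type, 9.56 in transgenic and 7.95 in TCF-1-deficient cells, a difference of -1.40 without TCF-1. Rgs2, another RGS protein, differed by -1.21 and Prex1, a Rac exchange factor driven by G protein βγ subunits, by -1.03. Gnai2, the main Gi subunit of lymphocytes, was at 12.58, 12.72 and 12.20 on the wild type, transgenic and TCF-1-deficient arrays, within 1.5-fold.

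With the transgene, 0 of the 32 pathway genes were past 2-fold and the median was 0. Rgs2 had the largest difference (-0.76), followed by Pik3r5, a regulatory subunit of phosphoinositide 3-kinase γ (0.58). Between the transgenic and TCF-1-deficient arrays 3 were higher, Rgs14 (1.61), Prex1 (1.02) and Pik3r5 (1.02), and 0 were lower, beside 2.45% of all genes higher.

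Few of the other receptors and adhesion molecules of thymocyte migration were past 2-fold. Of 19 measured, 1 was lower without TCF-1 by at least 2-fold, Plxnd1, a semaphorin receptor of double-positive cells (-2.04), and 1 was higher, Itgae, the integrin chain that binds epithelial E-cadherin (1.66). Over all genes 2.62% were lower and 1.33% higher, so single members of a list of this size are near the background. With the transgene 1 was higher, Cd44, the hyaluronan receptor (1.68), and 0 were lower, beside 0.246% of all genes in either direction. S1pr1, the egress receptor, measured 8.55 in wild type, 7.73 in transgenic and 8.30 in TCF-1-deficient cells. Its lowest value was on the transgenic array, as for Cxcr6. Of 4 proteins with chemokine-like activity or chemokine genes that carry other names, Pf4 and Ppbp were the same on every array. Cklf differed by -0.94 and Mif, the macrophage migration inhibitory factor, by 0.78 without TCF-1. Mif was the 1 of these past 2-fold in any comparison, at -1.13 in transgenic minus TCF-1-deficient cells.

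Some markers of other leukocytes that carry chemokine receptors, and of other cells, were past 2-fold. Over all genes, 1.33% were higher and 2.62% lower without TCF-1, and 0.246% were past 2-fold in either direction with the transgene. By count, single members of lists of this size are near the background without TCF-1. Of 9 measured B cell markers, 4 were higher without TCF-1 by at least 2-fold and 0 lower, with a mean level of 6.85 in wild type, 7.14 in transgenic and 8.04 in TCF-1-deficient cells. Cxcr5, which B cells carry, was the same on every array. Of 11 macrophage and monocyte markers 2 were higher, of 10 dendritic cell markers 1 was higher, and of 9 neutrophil markers 0 were past 2-fold without TCF-1. Of 11 thymic epithelial markers 1 was lower, Cldn4 (-1.44), and 9 lay below the median level on every array. Of 12 markers of fibroblasts and endothelium 1 was higher, Pdgfrb (4.47), the highest difference over all genes without TCF-1. The median difference of its list was 0.08. Of 7 regulatory T cell markers 1 was higher without TCF-1 and 1 lower with the transgene, which was Nrp1 in both cases (1.70 and -1.16), and Foxp3, which defines these cells, was listed at 7.08 on every array. The part of these cell types in the values of the receptors and ligands was not tested.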

How the data were processed

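The authors deposited 1 value for each of 35556 probe sets on each of 3 arrays. RMA and Partek are named in the submitters' processing notes. RMA gives logarithms to base 2 and the deposited numbers run from 1.73 to 14.8, so they were read as log2 values, although no header states the base. Tool versions, settings and the build: not given in the sources used here. No further scaling was applied. The platform's annotation table lists 23410 of the probe sets, 21789 of them with 1 symbol. The rest stayed out, and with them the Ccl21 and Ccl27 genes, whose probe sets carry several symbols. Of the 67 chemokine and receptor symbols in the GRCm38.p6 gene table, 56 were members. Ccl19 and Ccl25 are the 2 members with more than 1 probe set, and each is represented by its brightest. Ccl19 has pseudogene copies that can share signal.

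Differences, counts past 2-fold and medians were computed with Python 3.11.15, NumPy 2.4.6 and pandas 2.3.3, the loess correction with statsmodels 0.14.6, and the calculation was tested on simulated data. With so few arrays the precision of single values is unknown. The members, the lists, the naming rule (members past 1.5-fold or 2-fold, those with the highest values and a fixed set of thymic receptors and ligands) and the alternatives were chosen with earlier results of these data known. The label of the TCF-1-deficient array was not checked against the disrupted gene, which was not analysed here.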

Additional observations from a re-analysis of the deposited data

How the results depend on the processing

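No paired analysis was possible because each genotype has 1 array, and for the same reason no replicate could be left out. At 1.5-fold, 2 receptors were lower without TCF-1, beside 6.9% of all genes; with the transgene 1 was higher and 2 were lower than wild type, beside 0.487% and 0.667%; between the transgenic and TCF-1-deficient arrays 3 receptors were higher, beside 6.29%, and 1 ligand was lower, beside 4.4%. At 3-fold, 0 receptors were lower in that last comparison, so Cxcr6 no longer counted, while Ccr9 still did. Among the 8 receptors that reached the median level, the median difference was -0.16 without TCF-1 and 0.12 between the mutant arrays. Among the 3 ligands that reached it, the median was -0.11 without TCF-1 and -0.11 with the transgene. With 3 ligands each median is the value of 1 gene, Ccl25 without TCF-1 and Ccl5 with the transgene. Setting the array medians equal moved the median over all genes and of both classes to 0.13 without TCF-1, Ccr9 to -1.68 and Ccr7 to -0.87. Leaving out members with the same value on all 3 arrays gave medians of 0.10 for receptors and 0.15 for ligands without TCF-1, and of -0.14 and -0.12 between the mutant arrays. After a loess correction for intensity (span 0.3) Ccr9 was at -1.699 without TCF-1. The 3 differences past 2-fold, Ccr9 without TCF-1 and Ccr9 and Cxcr6 between the mutant arrays, kept their direction and stayed past 2-fold with equal medians and loess. Ccr9 and Cxcr6 have 1 probe set each, so means over probe sets could not change these differences. Near 0 the sign turned with equal medians for Ccr9 with the transgene (-0.013 to 0.066) and Ccr8 without TCF-1 (-0.002 to 0.13). The Cxcr6 alternatives were chosen after seeing the data. Differences of dim members are the least certain.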
